A study of Homo sapiens with 6 samples.

Results

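Plectin (PLEC), dystonin (DST) and microtubule-actin crosslinking factor 1 (MACF1) are plakins, giant proteins that tie parts of the cytoskeleton to each other and to adhesion sites. Their skipped exons were followed in MDA-LM2 cells, which come from human MDA-MB-231 breast cancer cells by selection for growth in the lung, after knockdown of a spliceosome protein. An exon was taken where it lay on the same strand within PLEC, DST or MACF1 by GENCODE 29, which gave 20 of the 40658 skipped exons measured in all genes, 3 of them in PLEC, 5 in DST and 12 in MACF1. RNA was sampled 48 h after transfection with siRNA. The 6 libraries comprised 2 with control siRNA (siCtrl), 3 with siRNA against SNRPA1 (siSNRPA1) and 1 with siRNA against SNRPB (siSNRPB). SNRPA1 encodes a protein of the U2 snRNP, the particle that recognises the intron branch point, and SNRPB encodes proteins of the Sm ring that most spliceosomal snRNPs share. The values are 1 table per group, so each group is a pool with no replicate and no standard deviation, and the siRNA behind each library is not named.

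Plakins carry a long rod or a chain of spectrin repeats between their binding domains. Plectin anchors intermediate filaments at hemidesmosomes, focal contacts and the nuclear envelope, and forms without the rod are made when the exon that encodes it is skipped. Dystonin and MACF1 begin with an actin-binding domain in their long forms and end with regions that bind microtubules and the plus-end protein EB1, and both are known for many tissue-specific isoforms made by alternative promoters and small exons.

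Each read at an event fits only the inclusion of the exon, only its exclusion (it joins the flanking exons), both (it lies in a flanking exon) or neither. Reads of the first pair of classes are called informative here. The pools held 5201371 informative reads in siCtrl, 7155107 in siSNRPA1 and 3116325 in siSNRPB, with a median of 18, 23 and 15 per exon. The target of each siRNA was low in the pool named for it: reads that fit an isoform of SNRPA1 were at 18.5% of siCtrl in siSNRPA1, and those of SNRPB at 12.4% in siSNRPB. The other target was above siCtrl: such reads of SNRPA1 were at 230% in siSNRPB and those of SNRPB at 136% in siSNRPA1. CD44 and ITGB1, expressed in basal-like breast cancer lines, had 3266 and 1057 such reads per 1000000 in siCtrl. The luminal genes ESR1 and PGR had 2.75 and 0.593, and the epithelial gene CDH1 had 1.08. EGFR had 89.7 and ERBB2 64.1. Each value is a sum over the gene's skipped exons, 15 in CD44, 5 in ITGB1 and 1 in EGFR. Such sums do not rank genes by expression.

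Some skipped exons of DST and MACF1, though not all, were alike in length and order, which is why the sequences are shown first. Toward the 3' end of each gene lay an 18-nt exon between flanking exons of 75 and 118 nt, an exon of 72 nt in DST and 69 nt in MACF1, and an exon of 111 nt. Further upstream each had a 327-nt exon between exons of 160 and 85 nt. These pairs were chosen after the values were seen. The exons were read from GENCODE 29 transcripts, 5' to 3', and capitals mark bases that are the same at that position in the paired exon.
DST 18-nt (chr6:56468982-56468999, minus strand, hg38): TTCTTCCTgGGaAATCAG
MACF1 18-nt (chr1:39465095-39465112, plus strand, hg38): TTCTTCCTcGGcAATCAG
DST 111-nt (chr6:56463046-56463156, minus strand): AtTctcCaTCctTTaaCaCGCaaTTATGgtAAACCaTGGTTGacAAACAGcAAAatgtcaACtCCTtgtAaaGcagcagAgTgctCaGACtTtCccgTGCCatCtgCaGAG
MACF1 111-nt (chr1:39480920-39481030, plus strand): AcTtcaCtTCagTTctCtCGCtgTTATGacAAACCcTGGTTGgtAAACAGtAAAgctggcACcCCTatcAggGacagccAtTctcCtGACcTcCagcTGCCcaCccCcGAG

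The 18-nt exons were identical at 16 of 18 positions (88.9%), and their flanking exons at 80.0% of 75 and 81.4% of 118 positions. The 111-nt exons shared 60 of 111 bases (54.1%), while the best ungapped placement of the DST exon in the 155-, 232- and 327-nt exons of MACF1 gave 33.3%, 36.0% and 37.8%. The 327-nt exons were identical at 58.4% of positions. The exons of 72 and 69 nt, given without capitals, aligned with 51 identical bases and 3 gap positions. Their letters show the shared start and end of the exon.
DST 72-nt (chr6:56464685-56464756, minus strand): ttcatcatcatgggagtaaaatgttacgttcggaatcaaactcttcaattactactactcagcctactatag
MACF1 69-nt (chr1:39469547-39469615, plus strand): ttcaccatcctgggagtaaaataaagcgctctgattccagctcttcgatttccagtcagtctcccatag

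All 20 exons matched an annotated exon, and 19 were coding in at least 1 transcript. The length of 17 was a multiple of 3, so that skipping keeps the reading frame, and 6 were at most 18 nt long. Over all measured skipped exons 41.0% had a length divisible by 3 and 1.03% were that short. Of the 16 exons with at least 20 informative reads in all 3 pools, 8 had at least 95% inclusion reads in every pool and 5 had at most 5%. The other 3 were the 18-nt exon of DST and the 96-nt and 111-nt exons of MACF1. Among the 8 was the 232-nt exon of MACF1, whose event has a rarely included 9-nt exon as its upstream flank, which limits skipping reads.

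**Figure D1:**
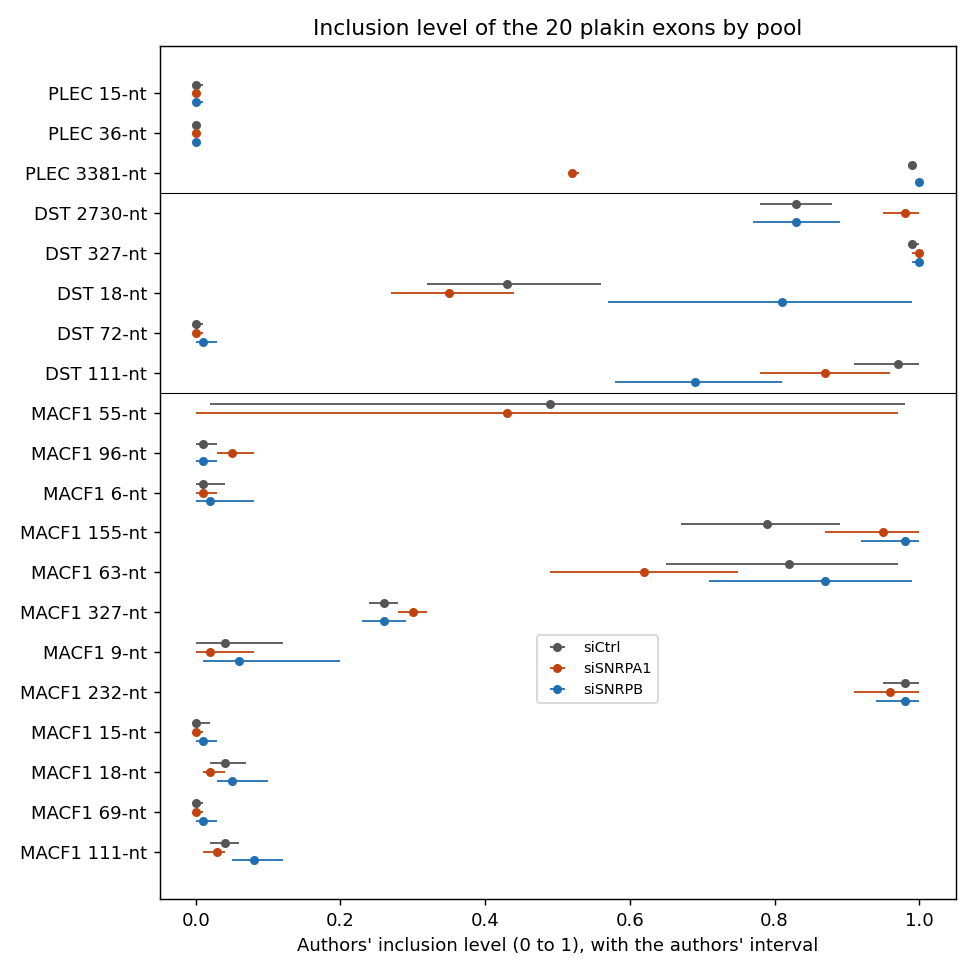
Authors' inclusion level of each plakin exon (points, 0 to 1 on the horizontal axis) with the authors' interval (bars) in the siCtrl, siSNRPA1 and siSNRPB pools, exons listed by gene and from 5' to 3'. The 3381-nt exon of PLEC stands at 0.52 in siSNRPA1 against 0.99 and 1.00, and the 18-nt exon of DST at 0.81 in siSNRPB against 0.43 and 0.35; the 55-nt exon of MACF1 has no siSNRPB value.

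The 3381-nt exon of PLEC (hg38 chromosome 8, 143922504 to 143925884, minus strand) encodes the central rod of plectin. It is coding, and lies between an exon of 99 nt and the last exon of the event, 7243 nt long, after introns of 899 and 108 nt on its 5' and 3' side. Of 10 annotated transcripts that span it, 9 contain it and 1 joins the flanking exons. The authors' inclusion level was 0.99 (their interval 0.99 to 0.99) in siCtrl, 0.52 (0.52 to 0.53) in siSNRPA1 and 1.00 (1.00 to 1.00) in siSNRPB. As given, none of these intervals overlapped, and the siSNRPA1 level lay far below those of the other pools.

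The read classes of this exon did not all move with that level. Inclusion-only reads numbered 80008 in siCtrl, 55672 in siSNRPA1 and 54786 in siSNRPB. Reads that joined the flanking exons numbered 51, 18 and 4. Reads that fit both isoforms, which come from the flanking exons, numbered 158134, 229335 and 89258, and 2940, 3361 and 1596 reads fitted neither. The pool with the low inclusion level therefore had fewer skipping reads than siCtrl, not more.

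Scaled to 1000000 isoform-fitting reads of each pool, inclusion-only reads of the PLEC exon were 4311 in siCtrl, 2033 in siSNRPA1 and 4778 in siSNRPB. Relative to siCtrl these were 47.2% in siSNRPA1 and 111% in siSNRPB. Reads of the flanking exons were 8521, 8376 and 7785 on the same scale, or 98.3% and 91.4% of siCtrl. Skipping reads were 2.75 (exact 95% Poisson interval 2.05 to 3.61, counting error only), 0.657 (0.390 to 1.04) and 0.349 (0.0951 to 0.893). Per nucleotide, the exon carried 1.10 times the read density of its flanking exons in siCtrl, 0.527 times in siSNRPA1 and 1.33 times in siSNRPB. These flanks are 99 nt upstream and 7243 nt downstream, so the ratio sets the exon mainly against the downstream flank. Whether coverage along the RNA differed between pools was not tested. Coverage of the exon relative to its neighbours was thus lower in siSNRPA1, while reads joining the neighbours were 0.0637% (95% Wilson interval 0.0485 to 0.0837%), 0.0323% (0.0204 to 0.0511%) and 0.0073% (0.00284 to 0.0188%) of the informative reads of siCtrl, siSNRPA1 and siSNRPB.

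**Figure D2:**
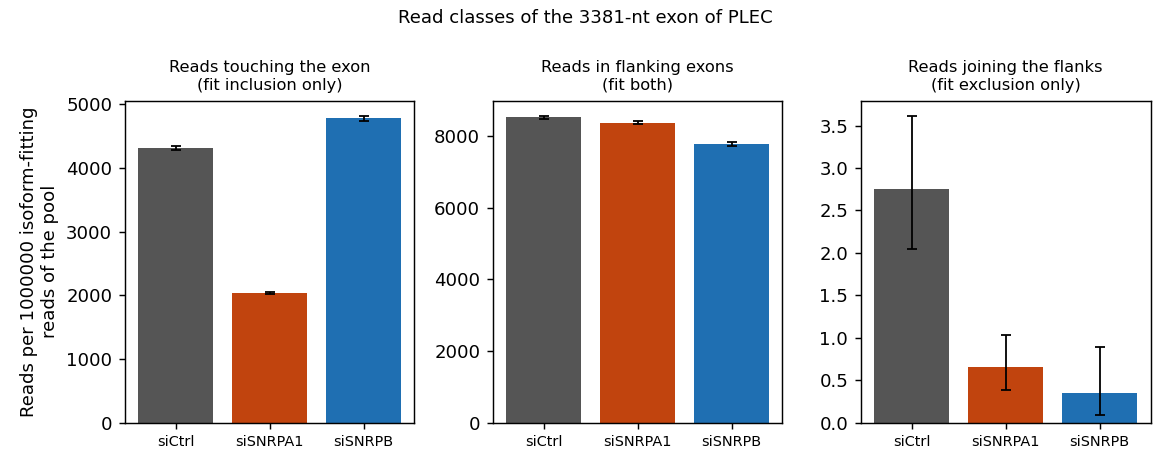
Reads of the 3381-nt exon of PLEC per 1000000 isoform-fitting reads of the pool, by class, in siCtrl, siSNRPA1 and siSNRPB; bars are pools and error lines exact 95% Poisson intervals (counting error only), and each panel has its own scale from 0. Inclusion-only reads are lowest in siSNRPA1 (2033), flanking reads are at 8376 there against 8521 in siCtrl, and skipping reads are highest in siCtrl (2.75).

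To set this exon against others, the ratio of inclusion-only to flanking reads was taken for 8014 exons with at least 50 reads of each class in siCtrl and siSNRPA1. Its log2 change in siSNRPA1 was -1.06 for the PLEC exon, with a median of -0.11 over all of them and a middle 95% from -1.10 to 0.84, and 235 exons were lower. Among the 689 exons with at least 1000 inclusion-only reads in both pools, 3 were lower. In siSNRPB the log2 change of the PLEC exon was 0.28, against a median of -0.04 over 5453 exons. These are descriptions of the pools with no test.

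**Figure D3:**
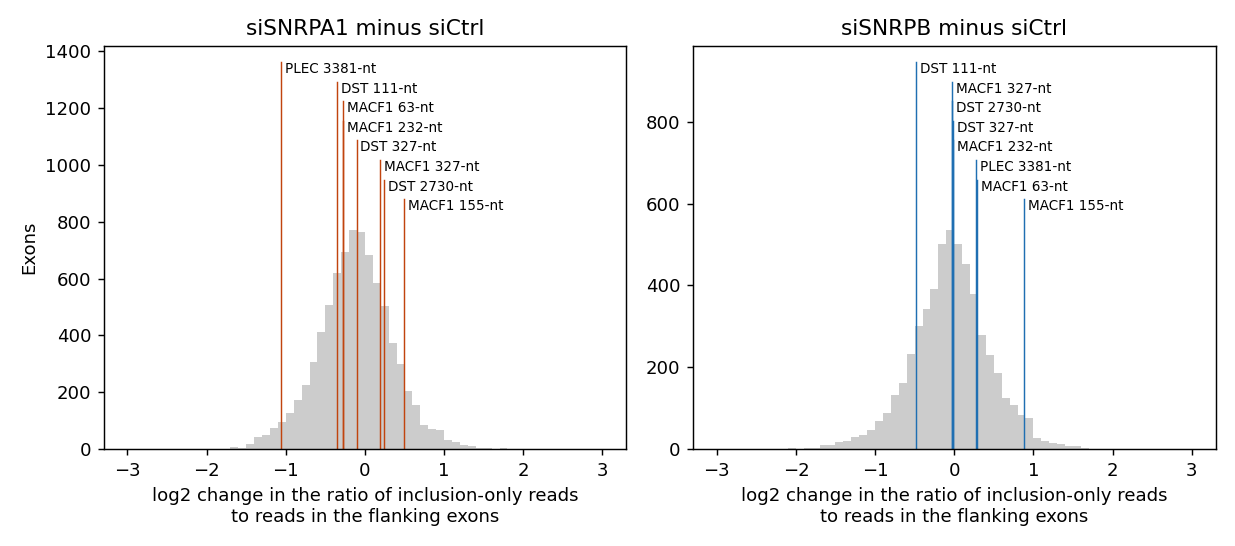
Histogram of the log2 change in the ratio of inclusion-only reads to flanking reads (horizontal axis) over all exons with at least 50 reads of each class (vertical axis, number of exons), for siSNRPA1 minus siCtrl and siSNRPB minus siCtrl; lines mark the plakin exons with enough reads. The PLEC exon lies at -1.06 on the left and at 0.28 on the right, and the 155-nt exon of MACF1 is the highest plakin exon in both, at 0.49 and 0.88.

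An exon was tested where each pool had at least 20 informative reads and both pools together at least 5 of each informative class, by a two-sided Fisher's exact test, with p-values adjusted by Benjamini-Hochberg across all exons tested in any gene. A call, a rise or a fall, required adjusted p below 0.05 and also an inclusion level, as the authors gave it, shifted by 0.1 or more to the same side as the share of inclusion reads. The test compares reads of pools, not conditions, and has no replicate check. With these rules 7 of the 20 plakin exons were tested in at least 1 comparison and 3 were called in at least 1. The share called among tested exons of all genes is given with each comparison below. The comparisons of siSNRPA1 and siSNRPB with siCtrl share the control pool.

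In siSNRPA1 against siCtrl, 0 of 5 tested plakin exons were called, where 17.0% of the 6459 tested exons of all genes were (12.8% fell and 4.18% rose). By Fisher's exact test 3 of the 5 had an unadjusted p under 0.05, as had 2813 of the 6459 tested exons of all genes, and the adjusted p was under 0.05 for 1, beside 31.8% of all tested exons. That exon was the PLEC exon, whose share of inclusion reads was higher in siSNRPA1 by 0.0314 percentage points (Fisher's exact test, adjusted p = 0.0448) while the difference in level was -0.47, so it was not called. With read counts divided by 2 that adjusted p was 0.287. In the authors' deposited table its Bayes factor, the evidence for a difference over that for none, was 1e+12. By a Bayes factor of at least 10 and a difference of at least 0.1, 1 plakin exon was lower (this exon) and 1 higher (in DST), where 4.9% and 2.28% of 37799 exons were, or 7.18% in all. Of the lower exons, 1227 had at least 20 informative reads in both pools. The share of inclusion reads was lower in 888 of these, equal in 301 and higher in 38 (3.10%). Of the 105 whose level was lower by at least as much as that of the PLEC exon, 2 had a higher share, the PLEC exon among them.

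**Figure D4:**
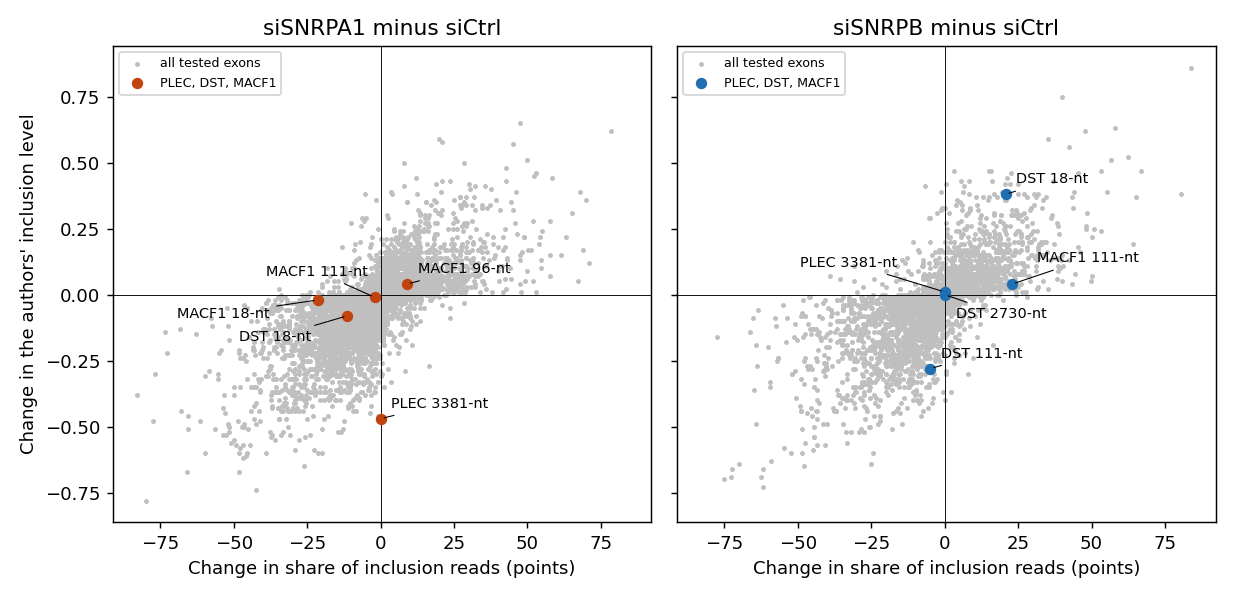
Change in the authors' inclusion level (vertical axis) against change in the share of inclusion reads in percentage points (horizontal axis) for every tested exon (grey) and the tested plakin exons (colour), in siSNRPA1 minus siCtrl and siSNRPB minus siCtrl. The 3381-nt exon of PLEC lies at -0.47 on the vertical axis with almost no change in share on the left, and the 18-nt exon of DST at 0.38 and 20.8 points on the right.

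In siSNRPA1 against siSNRPB the same PLEC exon was called as fallen, since level and share then differed in 1 direction. The difference, siSNRPA1 minus siSNRPB, was -0.48 in level and -0.025 percentage points in the share of inclusion reads (Fisher's exact test, adjusted p = 0.0209). With read counts divided by 2 the adjusted p was 0.238. In siSNRPB against siCtrl the level differed by 0.01 and the share by 0.0564 points (Fisher's exact test, adjusted p = 1.17e-06), below the difference that a call needs. The authors' deposited table gave a Bayes factor of 1e+12 for this difference of 0.01 as well.

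The other PLEC exons are small, coding and in frame. The 36-nt exon (143937749 to 143937784) had 0 inclusion reads beside 1294 skipping reads in siCtrl, 3 beside 1497 in siSNRPA1 and 0 beside 680 in siSNRPB. The 15-nt exon (143938401 to 143938415) had 1 beside 645, 0 beside 819 and 0 beside 400. Inclusion was near 0 in every pool, and a count of 0 allows a share of inclusion reads of up to 0.232% in siCtrl and 0.441% in siSNRPB for the 36-nt exon, and of 0.366% in siSNRPA1 and 0.75% in siSNRPB for the 15-nt exon. Here and below such a limit is 3 divided by the informative reads and is not a Wilson bound. Neither exon had enough inclusion reads to be tested. GENCODE lists the 36-nt exon in 1 of 14 spanning transcripts and the 15-nt exon in 1 of 15.

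DST gave both of the plakin calls in siSNRPB against siCtrl, where 2 of 5 tested plakin exons were called beside 21.3% of 4244 tested exons of all genes. Of these 1 fell and 1 rose, where 16.7% and 4.62% of all tested exons did. By Fisher's exact test alone 4 of the 5 had an adjusted p under 0.05, beside 38.0% of all. The exon of 18 nt rose. It had 42 inclusion and 11 skipping reads in siCtrl, 53 and 25 in siSNRPA1, and 30 and 0 in siSNRPB, so skipping reads were absent only in the siSNRPB pool. The inclusion level was 0.43 (authors' interval 0.32 to 0.56), 0.35 (0.27 to 0.44) and 0.81 (0.57 to 0.99). The share of inclusion reads was 79.2% in siCtrl (95% Wilson interval 66.5 to 88.0%), 67.9% in siSNRPA1 (57.0 to 77.3%) and 100% in siSNRPB (88.6 to 100%). A count of 0 skipping reads allows a share of up to 10.0% by the limit of 3 divided by the informative reads. The Wilson interval allows up to 11.4%.

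For the rise of the 18-nt DST exon in siSNRPB Fisher's exact test gave adjusted p = 0.0206, and its Bayes factor in the authors' deposited table was 6.59. In siSNRPA1 minus siCtrl the difference was -0.08 in level and -11.3 points in share (Fisher's exact test, adjusted p = 0.287), and it was not called. Between the knockdowns it was called, with -0.46 in level and -32.1 points in share for siSNRPA1 minus siSNRPB (Fisher's exact test, adjusted p = 0.00107). With a minimum of 50 informative reads or with read counts divided by 2 this exon could not be tested in siSNRPB, where it had 30 informative reads.

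The exon of 111 nt in DST moved the other way. It had 325 inclusion and 0 skipping reads in siCtrl, 373 and 0 in siSNRPA1, and 137 and 7 in siSNRPB, the pool that held all of its skipping reads. The inclusion level was 0.97 (authors' interval 0.91 to 1.00), 0.87 (0.78 to 0.96) and 0.69 (0.58 to 0.81). It fell in siSNRPB, by 0.28 in level and 4.86 points in share (Fisher's exact test, adjusted p = 0.00151), and the Bayes factor in the authors' deposited table was 290. Between the knockdowns it was higher in siSNRPA1 by 0.18 (Fisher's exact test, adjusted p = 0.00128). When the share of inclusion reads stood for inclusion, neither difference reached 0.1, and with read counts divided by 2 the exon could not be tested. In all, 3 of 5 tested plakin exons were called between the knockdowns, beside 14.7% of 5082 tested exons of all genes. In siSNRPA1 2 were lower and 1 higher, where 6.38% and 8.28% of all tested exons were. By Fisher's exact test alone all 5 had an adjusted p under 0.05, beside 26.9% of all.

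The largest skipped exon of DST, 2730 nt (hg38 chromosome 6, 56617986 to 56620715), is coding and in frame and lies before an exon of 2843 nt. It had 1808 inclusion and 4 skipping reads in siCtrl, 2638 and 0 in siSNRPA1, and 996 and 2 in siSNRPB. The level was 0.83 (authors' interval 0.78 to 0.88) in siCtrl, 0.98 (0.95 to 1.00) in siSNRPA1 and 0.83 (0.77 to 0.89) in siSNRPB, so here siSNRPA1 was the high pool. The authors' deposited table gave a Bayes factor of 452087 for siSNRPA1 against siCtrl. There were too few skipping reads for a test of that comparison, and the share of inclusion reads was 99.8% in siCtrl and 100% in siSNRPA1. Of 9 annotated transcripts that span the exon, 1 contains it and 1 joins its flanking exons. The share of inclusion reads thus does not tell how much DST RNA holds the exon. As in PLEC, the level moved with the ratio of inclusion-only to flanking reads, whose log2 change was 0.24 in siSNRPA1 and -0.02 in siSNRPB.

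The remaining DST exons were at the extremes. The 327-nt exon had 1667, 2380 and 878 inclusion reads beside 2, 2 and 0 skipping reads in siCtrl, siSNRPA1 and siSNRPB, with levels of 0.99, 1.00 and 1.00. The 72-nt exon had no inclusion read in any pool beside 44, 67 and 13 skipping reads, which allows a share of up to 6.82%, 4.48% and 23.1%. No difference between pools was detectable in either at this depth.

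In MACF1 0 of 3, 0 of 1 and 0 of 2 tested exons were called in siSNRPA1 against siCtrl, in siSNRPB against siCtrl and between the knockdowns. Over all genes 17.0%, 21.3% and 14.7% of tested exons were called. With so few MACF1 exons tested, the lack of calls does not set MACF1 apart. Of the 2 MACF1 exons tested between the knockdowns, that of 111 nt had the larger difference in read shares. It is the counterpart of the DST exon that fell in siSNRPB. It had 13 inclusion and 112 skipping reads in siCtrl, 14 and 152 in siSNRPA1, and 16 and 32 in siSNRPB. The share of inclusion reads was 10.4% in siCtrl (95% Wilson interval 6.18 to 17.0%), 8.43% in siSNRPA1 (5.09 to 13.7%) and 33.3% in siSNRPB (21.7 to 47.5%). The siSNRPB share lay above the intervals of the other pools. Against siCtrl the share was higher by 22.9 points (Fisher's exact test, adjusted p = 0.00502), and the difference of siSNRPA1 minus siSNRPB was -24.9 points (Fisher's exact test, adjusted p = 0.00075).

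The authors' inclusion level of the 111-nt MACF1 exon moved less, from 0.04 (0.02 to 0.06) in siCtrl to 0.03 (0.01 to 0.04) in siSNRPA1 and 0.08 (0.05 to 0.12) in siSNRPB, and so it was not called. When the share of inclusion reads stood for inclusion, it passed in both comparisons with siSNRPB. With read counts divided by 2 the adjusted p was 0.0742 against siCtrl and 0.0450 between the knockdowns (Fisher's exact test). With a minimum of 50 informative reads this exon could not be tested in siSNRPB, where it had 48. The paired exons of 111 nt, mostly included in DST and mostly skipped in MACF1, thus had shares that differed from siCtrl in opposite directions in the siSNRPB pool.

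The 18-nt exon of MACF1, described as the counterpart of the DST exon and so chosen after its values were seen, had 8 inclusion and 18 skipping reads in siCtrl, 3 and 29 in siSNRPA1 and 7 and 1 in siSNRPB. The share of inclusion reads was 30.8% (95% Wilson interval 16.5 to 49.99%), 9.38% (3.24 to 24.2%) and 87.5% (52.9 to 97.8%), with siSNRPB highest and siSNRPA1 lowest, the order also seen in DST. In siSNRPA1 against siCtrl the adjusted p was 0.114 (Fisher's exact test), and siSNRPB had too few informative reads to be tested. The authors' inclusion levels were 0.04, 0.02 and 0.05, beside 1601, 1902 and 1141 reads in the flanking exons.

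**Figure D5:**
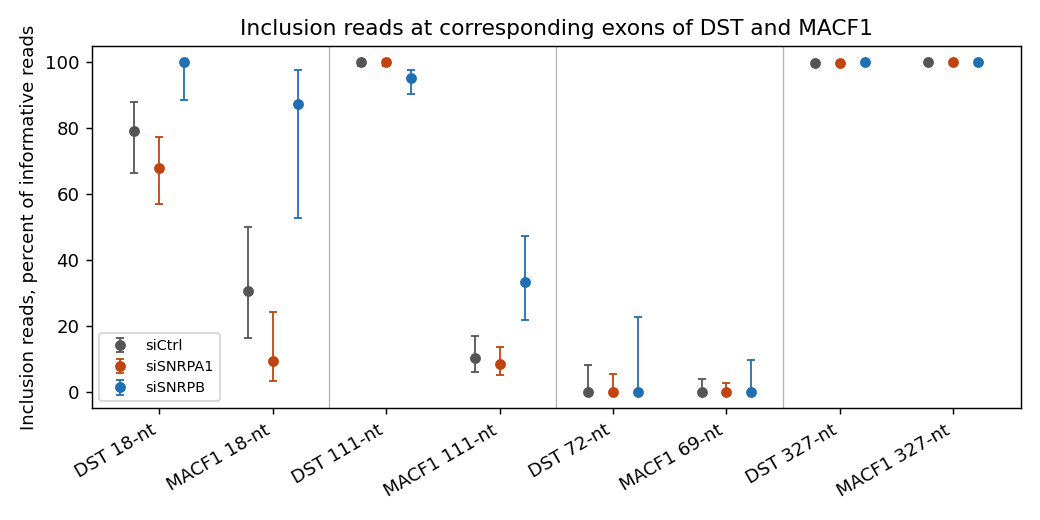
Inclusion reads as a percentage of informative reads (vertical axis) with 95% Wilson intervals (counting error only) at paired exons of DST and MACF1 in siCtrl, siSNRPA1 and siSNRPB. At the 18-nt exons siSNRPB is highest (100% in DST, 87.5% in MACF1); at the 111-nt exons it is lowest in DST (95.1%) and highest in MACF1 (33.3%); the exons of 72 and 69 nt stay at 0% and those of 327 nt near 100%.

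Some MACF1 exons had inclusion levels below 1 with almost no skipping reads. The 155-nt exon (hg38 chromosome 1, 39302924 to 39303078), whose length is not a multiple of 3, had 185, 289 and 197 inclusion reads and 0 skipping reads in every pool. Its level was 0.79 (authors' interval 0.67 to 0.89) in siCtrl, 0.95 (0.87 to 1.00) in siSNRPA1 and 0.98 (0.92 to 1.00) in siSNRPB. The authors' deposited table gave Bayes factors of 2.89 and 16.5 against siCtrl. The log2 ratio of inclusion-only to flanking reads was higher by 0.49 and 0.88. By the Bayes factor with a difference of at least 0.1, this exon was the 1 plakin exon higher in siSNRPB and the 111-nt DST exon the 1 lower, where 2.38% and 5.49% of 32213 exons were, or 7.87% in all.

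The 63-nt exon (39378461 to 39378523) had 74 inclusion and 0 skipping reads in siCtrl, 65 and 3 in siSNRPA1, and 61 and 0 in siSNRPB, with levels of 0.82 (0.65 to 0.97), 0.62 (0.49 to 0.75) and 0.87 (0.71 to 0.99). These intervals overlapped, and the Bayes factor for siSNRPA1 in the authors' deposited table was 1.22.

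The 327-nt exon had 803, 1346 and 462 inclusion reads and no skipping read, while its level was 0.26, 0.30 and 0.26. Its read density was 0.326, 0.373 and 0.320 times that of its flanking exons, where the 327-nt exon of DST had 4.90, 4.55 and 4.84 times. At the 327-nt exon of MACF1 a level well below 1 thus came with low coverage of the exon relative to its flanks and no skipping reads. GENCODE lists 1 other exon form that overlaps this MACF1 exon and 0 for the DST exon. Whether that bears on the densities was not tested.

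Of the other MACF1 exons, that of 232 nt had 787, 1200 and 606 inclusion reads, 0 skipping reads and levels of 0.98, 0.96 and 0.98. The upstream flank of its event is the 9-nt exon, which had 0 inclusion reads in every pool. A skipping read must hold that 9-nt exon, so the 0 skipping reads say little about skipping of the 232-nt exon. The exons of 6, 15 and 69 nt had 0 inclusion reads in every pool, with 36 to 142 skipping reads per pool and levels of 0.00 to 0.02. The 9-nt exon had 0, 2 and 0 informative reads beside 1824, 2863 and 1226 flanking reads, so its levels of 0.04, 0.02 and 0.06 rest on flanking reads. The 55-nt exon, the only noncoding member, had no informative reads and intervals of 0.02 to 0.98 and 0.00 to 0.97. The 96-nt exon had 0 inclusion and 58 skipping reads in siCtrl, 13 and 133 in siSNRPA1, and 0 and 61 in siSNRPB. All of its inclusion reads were thus in siSNRPA1 (8.90%, 95% Wilson interval 5.28 to 14.6%), and Fisher's exact test gave adjusted p = 0.0626 against siCtrl and 0.0449 against siSNRPB. The level differed by 0.04 in each, so the exon was not called. A gene on the other strand overlaps this exon, and with the strand setting not given in the sources used here, their reads cannot be told apart.

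Reads of the 3 genes were summed over their skipped-exon events. Those that fit an isoform, per 1000000 of the pool, came to 12968, 10522 and 12677 over the PLEC exons in siCtrl, siSNRPA1 and siSNRPB. Over the DST exons they were 466, 437 and 405, and over the MACF1 exons 684, 646 and 708. As a percentage of siCtrl, PLEC stood at 81.1% in siSNRPA1 and 97.8% in siSNRPB, DST at 93.8% and 86.9%, and MACF1 at 94.5% and 104%. The median over 7784 genes was 99.7% and 95.1%. Nearly all PLEC reads were reads of the 3381-nt event, so the PLEC total holds the change of that exon. With informative reads only, PLEC stood at 51.4% in siSNRPA1 and 114% in siSNRPB. Reads of the flanking exons of the 3381-nt event were at 98.3% of siCtrl in siSNRPA1 and 91.4% in siSNRPB. In bulk RNA a smaller share of cells expressing a gene and less of its RNA per cell cannot be told apart. The 3381-nt exon alone held 1.54% of all informative reads in siCtrl, 0.778% in siSNRPA1 and 1.76% in siSNRPB, and was at rank 3 among all exons in each pool.

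Reads that fitted neither isoform were a smaller part of the plakin events than of others. Their median share was 32.9% in siCtrl, 30.3% in siSNRPA1 and 25.7% in siSNRPB over the plakin exons, against 77.6%, 75.7% and 65.8% over all exons. Within the plakins the share ran from 1.22% at the 3381-nt exon of PLEC to 92.3% at the 55-nt exon of MACF1 in siCtrl.

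The partners of plakins were taken as 6 lists of 83 genes. None of the other plakins listed, DSP, EVPL, PPL and EPPK1, had a measured skipped exon. In siSNRPA1 against siCtrl 11 of 66 tested exons of all lists fell and 2 rose (19.7% called, median level difference 0), where 12.8% of all tested exons fell, 4.18% rose and 17.0% were called, with a median of -0.02. Nuclear envelope linkers had 5 falls in 8 exons, and these 8 came from 4 genes. Among the falls was SUN1, which spans the inner nuclear membrane (0.51 to 0.23). The LEM-domain proteins EMD (0.98 to 0.79) and TMPO (0.92 to 0.77, Fisher's exact test, adjusted p = 3.95e-14) fell as well. Microtubule end partners had 3 falls in 11 exons. These were GAS2L3, which links actin and microtubules (0.78 to 0.18, Fisher's exact test, adjusted p = 1.06e-07), APC (0.27 to 0.08) and the plus-end protein CLASP1 (0.20 to 0.05). GAS2L3 and APC could not be tested with a minimum of 50 informative reads. As a share of inclusion reads the difference was -0.04 for EMD and -0.09 for TMPO, each under the 0.1 that a call needs.

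Hemidesmosome and basement membrane genes had 3 falls and 1 rise in 20 exons in siSNRPA1 (20% called, near the 17.0% of all tested exons). ITGB4, the integrin subunit that plectin binds, fell from 0.86 to 0.64 at a 150-nt exon that a gene on the other strand overlaps, and the tetraspanin CD151 fell from 0.67 to 0.50. ITGA6, the integrin subunit that pairs with ITGB4, rose from 0.36 to 0.63 at a 130-nt exon that a gene on the other strand also overlaps. Of 25 exons of spectrin-repeat and calponin-homology linkers 0 fell and 1 rose, in alpha-spectrin (SPTAN1) at a 60-nt exon (0.46 to 0.56), and of 2 exons of intermediate filament genes none was called. The difference in the share of inclusion reads was -0.04 for ITGB4, 0.08 for ITGA6 and 0.09 for SPTAN1, so that these 3 were not called on read shares. With read counts divided by 2 the calls over all lists came to 3 in place of 13.

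In siSNRPB against siCtrl 7 of 45 tested exons of the lists fell and 6 rose (28.9% called, median 0), where 16.7% of all tested exons fell, 4.62% rose and 21.3% were called, with a median of -0.01. All of these rises were among the 18 exons, from 9 genes, of the spectrin-repeat and calponin-homology list, where 1 fell. They included SPTAN1 (0.46 to 0.83, Fisher's exact test, adjusted p = 1.74e-37) and MICAL3, a regulator of actin oxidation and vesicle docking, at a 51-nt exon (0.03 to 0.50). The MICAL3 exon had 2 inclusion and 43 skipping reads in siCtrl, and 20 and 8 in siSNRPB. The hemidesmosome list had 3 falls in 17 exons, among them ITGA6 at a 129-nt exon (0.98 to 0.76) and CD151 (0.67 to 0.48). Nuclear envelope linkers had 2 falls in 6 exons from 3 genes, TMPO among them (0.92 to 0.78). Microtubule end partners had 1 in 4, in APC (0.27 to 0.03), with 14 inclusion and 18 skipping reads in siCtrl and 0 and 20 in siSNRPB. Neither APC nor MICAL3 could be tested with a minimum of 50 informative reads or with read counts divided by 2. The difference in the share of inclusion reads was -0.03 for ITGA6, whose exon a gene on the other strand overlaps, and -0.08 for TMPO, and neither was called on read shares. With read counts divided by 2 the calls came to 5 in place of 13.

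Between the knockdowns 9 of 52 tested exons of the lists were lower in siSNRPA1 and 4 higher (25% called, median 0), where 6.38% of all tested exons were lower, 8.28% higher and 14.7% called, with a median of 0. The spectrin-repeat and calponin-homology list held 8 of the lower exons in 19 tested, and these 19 came from 8 genes. Among the lower exons were those of SPTAN1 (0.56 in siSNRPA1 and 0.83 in siSNRPB) and MICAL3 (0.11 and 0.50). With a minimum of 50 informative reads or with read counts divided by 2 the MICAL3 exon could not be tested. ITGB4 was lower in siSNRPA1 (0.64 and 0.75), with a difference of -0.07 in the share of inclusion reads, too small for a call on read shares. None of 7 exons of nuclear envelope linkers and none of 9 exons of microtubule end partners was called. With read counts divided by 2 the calls came to 5 in place of 13.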

How the data were processed

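Skipped-exon events were summarised by the authors in 1 file per group, with MISO's column names. Version and settings, and how libraries were combined, were not given in the sources used here. STAR 2.7 and hg38 are named per the submitters' processing notes. Inclusion levels and their intervals are given per the file headers as a fraction, and reads per class as text. Files of the authors' comparisons, as deposited, hold a score (the difference of the levels, -1 to 1) and the Bayes factor, a ratio. MISO's model also draws on reads in flanking exons.

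From these files the event with the most informative reads was kept for each skipped exon; every plakin exon had 1 event. Coordinates are those of the files, counted from 1, and exon sequences come from GENCODE 29 transcripts. Reads are not independent molecules, so every interval, limit and test covers counting error only. Reads in an exon can be counted in several events. The test was checked on simulated data with independent reads and with levels equal to read shares. That check does not cover reads that are not independent, or levels that depart from read shares. Alternatives were other read minimums (10 and 50), a level difference of 0.2, read shares, all events, read counts divided by 2 and the authors' Bayes factor. The genes, lists and rules were chosen with earlier results of these data known. Named exons were the long PLEC exon, called exons, per gene the 5 deepest and up to 6 with a level of 0.1 to 0.9 in a pool with enough reads, and up to 3 called exons per partner list and comparison. 1 of these is not reported here. The other 6 exons, all in MACF1, are given so that each is accounted for. Python 3.11.15, scipy 1.17.1, numpy 2.4.6, pandas 2.3.3 and matplotlib 3.10.9 were used.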

Additional observations from a re-analysis of the deposited data

How the results depend on the processing

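No paired analysis was possible because the files hold 1 pool per group, and for the same reason no replicate could be left out. In siSNRPA1 against siCtrl the call of 0 plakin exons became 2 with the authors' Bayes factor of at least 10, with 1 lower (the PLEC exon, -0.47) and 1 higher (the 2730-nt DST exon). With inclusion as the share of inclusion reads, the PLEC difference was 0.000314, of opposite sign, and that between the knockdowns was -0.00025 and not called. With read counts divided by 2 the latter, at -0.48, was not called either.

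In siSNRPB against siCtrl the 2 plakin calls became 1 with at least 50 informative reads (0 rises) and 0 with halved counts (0 falls, 0 rises), and with read shares there were 0 falls and 2 rises. Between the knockdowns the 3 calls became 0 with halved counts (0 falls, 0 rises), there was 1 fall with at least 50 informative reads, and there were 0 rises with read shares and with a difference of at least 0.2. The 13 calls in the partner lists became 5 (siSNRPA1), 7 (siSNRPB) and 5 (between the knockdowns) at a difference of at least 0.2. With halved counts they became 3, 5 and 5, and with Bayes factors 20 in siSNRPB. Halving leaves fewer exons with enough reads. The cause of the other changes was not tested. Except for Bayes factors, the share of all tested exons called under these settings was not taken. Whether the calls of all genes changed alike therefore cannot be told.

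With informative reads only, reads of PLEC came to 51.4% of siCtrl in siSNRPA1 and 114% in siSNRPB, those of DST to 103% in siSNRPA1, and those of MACF1 to 113% and 114%. Depth limits the MACF1 exons of 18 and 111 nt, with 8 and 48 informative reads in siSNRPB, and the DST exons of 18 and 111 nt. The calls of the 18-nt DST exon rest on 11 skipping reads in siCtrl and 25 in siSNRPA1, against 0 in siSNRPB. Those of the 111-nt DST exon rest on 7 in siSNRPB.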
